A study of Mus musculus with 7 samples.

Results

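The 10 genes described here encode the enzymes that make fatty acids from acetyl-CoA and the transcription factors that switch them on, namely *Fasn*, *Acaca*, *Acacb*, *Acly*, *Acss2*, *Me1*, *Thrsp*, *Srebf1*, *Mlxipl* and *Nr1h3*. They were taken by gene symbol from a list of known lipogenic genes, with no threshold on their values, although earlier results of these data were known when the list was made. All 10 were among the 14819 rows of the count table, and all 10 passed the filter on low counts that left 14779 genes for testing. The samples were primary hepatocytes of male mice, isolated by collagenase perfusion of the liver, kept overnight in William's E medium with fetal bovine serum and given no treatment. There were 4 WT samples and 3 samples from WDR6-WKO mice, which lack exon 2 of *Wdr6* in the whole body after CRISPR–Cas9 editing, so the deletion was not restricted to hepatocytes. The age and diet of the mice behind these samples, and whether the WT animals were littermates, are not given in the sources used here. The labels also do not say whether each sample came from a separate mouse, so p-values measure the spread between these samples, which may in part be technical.

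In de novo lipogenesis, ATP citrate lyase (ACLY) and acetyl-CoA synthetase (ACSS2) supply cytosolic acetyl-CoA, the acetyl-CoA carboxylases ACC1 (*Acaca*) and ACC2 (*Acacb*) turn it into malonyl-CoA, and fatty acid synthase (FASN) builds palmitate from malonyl-CoA with NADPH, part of which comes from malic enzyme (ME1). In liver, insulin acts on these genes through SREBP-1c (*Srebf1*), carbohydrate through ChREBP (*Mlxipl*), and oxysterols through LXRα (*Nr1h3*), which itself raises *Srebf1* transcription. WDR6, a WD40-repeat protein, was studied for its part in this pathway, and the comparison of WDR6-WKO with WT hepatocytes asks how the pathway's transcripts differ when it is missing.

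*Wdr6* itself lay at 49.0, 40.6, 40.9 and 45.6 CPM (counts scaled to a common library total with edgeR's TMM factors) in WT replicates 1 to 4 and at 2.58, 2.32 and 2.23 CPM in WDR6-WKO replicates 1 to 3. Every WDR6-WKO library was thus far below every WT library, as the labels say (log2 fold change −4.20 ± 0.11 s.e., adjusted p = 3.44e-12, edgeR). The libraries held 17816913 to 23668940 counted reads. WDR6-WKO replicate 3 stood apart from the other libraries of its genotype, with a chi-square per gene of 14.4 and 16.2 against them, where all other pairs within a genotype lay between 3.84 and 8.34. For named genes that change their call without this library, the change is therefore stated. In bulk RNA, fewer cells of a type and less RNA per cell cannot be told apart.

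Of the 10 lipogenic genes, 3 were lower in WDR6-WKO at an adjusted p under 0.05, *Mlxipl*, *Me1* and *Srebf1*, and 0 were higher (edgeR's quasi-likelihood test, Benjamini-Hochberg adjustment over 14779 genes). Over all genes tested, 6.18% were lower and 6.65% were higher by the same rule. At an unadjusted p under 0.05 there were 3 lower genes and 1 higher gene, *Acly*, and DESeq2 and limma-voom each gave 3 lower and 1 higher. In edgeR, 13.6% of all genes tested were lower and 14.6% higher at that unadjusted p. With adjustment, DESeq2 called 3 lower and 0 higher, and limma-voom 2 lower and 0 higher. None of the 10 met the thresholds for differentially expressed genes (DEGs) in the study's methods, a log2 fold change of 0.35 or more in size with P below 0.05, by edgeR, DESeq2 or limma-voom. In the edgeR fit 10.4% of all genes tested met them, 3.94% in the lower direction. The CPM ranges of the genotypes did not overlap for 5 of the 10 genes, *Fasn*, *Acly*, *Me1*, *Srebf1* and *Mlxipl*, against 23.5% of all genes tested. By the sign of the fold change alone, 6 of the 10 were lower in WDR6-WKO, as were 48.8% of all genes tested. The median log2 fold change of the 10 genes was −0.08, beside 0.01 over all genes tested.

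**Figure D1:**
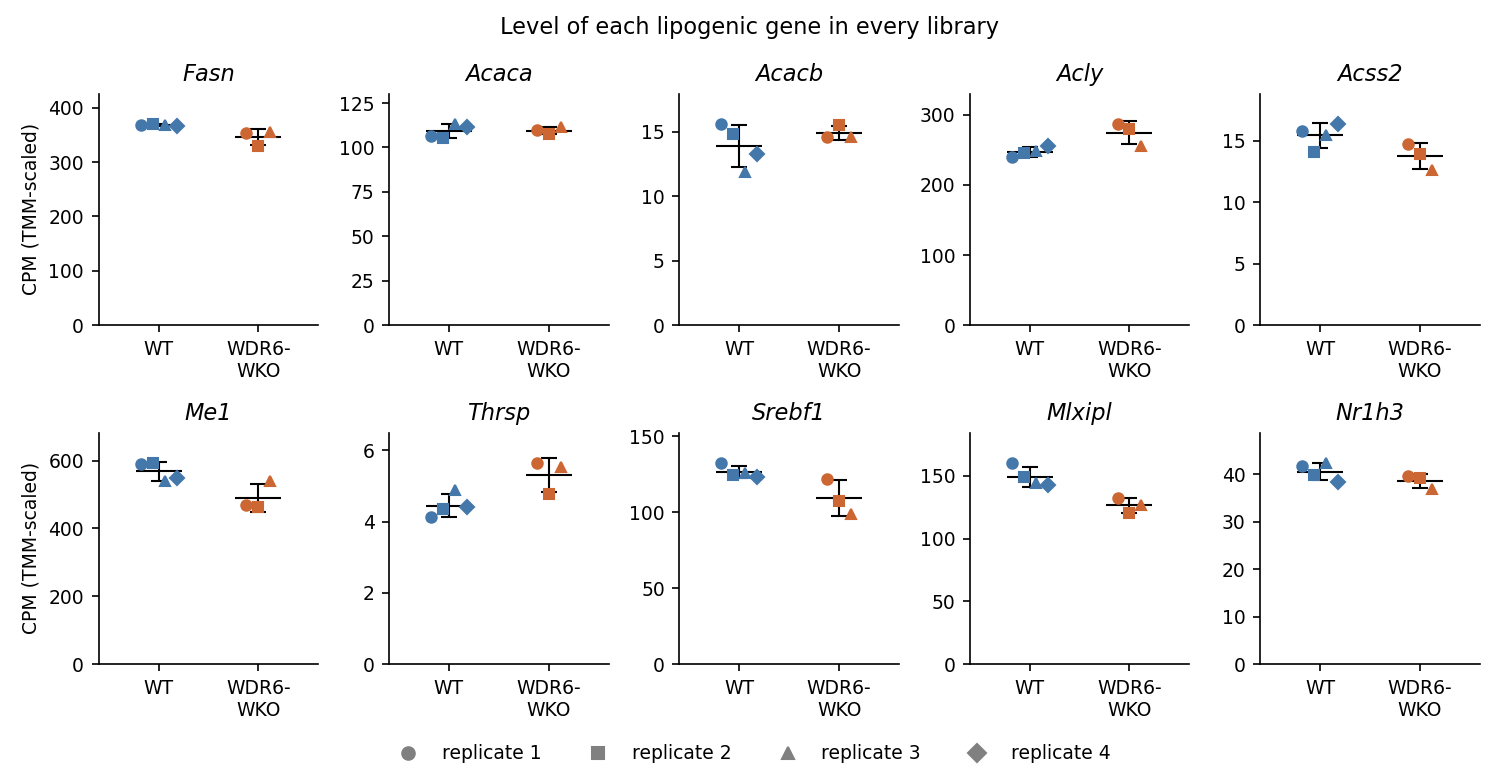
Level of each of the 10 lipogenic genes in every library, in TMM-scaled CPM on axes that start at 0 (WT in blue, n = 4; WDR6-WKO in orange, n = 3; the symbol gives the replicate number, the horizontal line the mean and the bar ± s.d.). *Mlxipl*, *Srebf1*, *Me1* and *Fasn* lie lower and *Acly* higher in all WDR6-WKO libraries than in all WT libraries, and the other 5 genes overlap between genotypes.

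The enzyme at the centre of the pathway, FASN, carries out all steps of palmitate synthesis on one multifunctional chain. Its gene lies on the minus strand of chromosome 11 (chr11:120805846-120824547, GRCm38) and its principal transcript has 43 exons. *Fasn* stood at 368, 370.4, 368 and 366 CPM in the WT libraries and at 354, 329 and 355 CPM in the WDR6-WKO libraries. The WT libraries were nearly equal, with a coefficient of variation of 0.527%, the WDR6-WKO libraries spread by 4.18%, and all 3 lay below all 4 WT libraries. At 6912 to 7290 reads per WT library, counting error alone would give a wider spread than that of WT. The closeness of the WT values is therefore not a measure of how little such samples vary. The WT mean of 368 ± 1.94 CPM (s.d., n = 4) compared with 346 ± 14.5 CPM (n = 3) in WDR6-WKO. The log2 fold change of −0.09 ± 0.04 (s.e.) had a 95% interval from −0.18 to 0.01 and did not pass the test (edgeR, adjusted p = 0.211). As a percentage of the WT level of *Fasn*, that interval runs from −11.9% to 0.467%. Without WDR6-WKO replicate 3 the log2 fold change was −0.11 and the adjusted p 0.0375 (edgeR), and without WDR6-WKO replicate 2, the lowest library, −0.05 and 0.570.

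Because the study turns on *Fasn* transcription, its promoter is shown, together with both annotated promoters of *Mlxipl*, the activator gene with the smallest p here. Each sequence runs from 250 bases before to 50 bases after a RefSeq transcription start (GRCm38.p6), 5′ to 3′ on the strand of the gene. Capitals mark the motifs searched on both strands, which were the E-box CACGTG and its variant CATGTG, the sterol regulatory element TCACNCCAC, the CCAAT box and the GC box GGGCGG. The 1st sequence is *Fasn*, chr11:120824498-120824797, minus strand. The 2nd is the *Mlxipl* window that holds the start of its principal transcript, chr5:135106641-135106940, plus strand, and the 3rd is the *Mlxipl* window at its upstream start, chr5:135089640-135089939, plus strand.

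Fasn: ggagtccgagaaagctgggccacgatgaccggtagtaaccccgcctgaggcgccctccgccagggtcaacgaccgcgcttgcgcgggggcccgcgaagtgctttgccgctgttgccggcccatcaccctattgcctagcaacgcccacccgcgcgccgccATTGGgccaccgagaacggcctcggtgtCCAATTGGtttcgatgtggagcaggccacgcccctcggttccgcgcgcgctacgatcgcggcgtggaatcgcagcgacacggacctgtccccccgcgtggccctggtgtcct
Mlxipl principal: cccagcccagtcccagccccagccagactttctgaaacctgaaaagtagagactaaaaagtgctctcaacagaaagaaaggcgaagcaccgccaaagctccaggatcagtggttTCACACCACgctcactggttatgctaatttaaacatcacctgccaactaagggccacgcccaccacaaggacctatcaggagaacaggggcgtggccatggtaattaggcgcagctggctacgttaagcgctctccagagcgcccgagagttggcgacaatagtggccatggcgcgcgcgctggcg
Mlxipl upstream: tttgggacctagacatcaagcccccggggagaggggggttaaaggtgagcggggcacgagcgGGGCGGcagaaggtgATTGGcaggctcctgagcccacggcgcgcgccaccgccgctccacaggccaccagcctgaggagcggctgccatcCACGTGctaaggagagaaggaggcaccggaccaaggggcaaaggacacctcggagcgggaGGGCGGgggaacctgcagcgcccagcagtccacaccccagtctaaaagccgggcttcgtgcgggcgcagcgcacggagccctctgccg

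The *Fasn* window held CCAAT or its reverse complement ATTGG at 90, 62 and 59 bases before the start, the last pair overlapping, and no match to the other 4 motifs. The principal *Mlxipl* window held TCACACCAC, a match to the sterol regulatory element, at 136 bases before its RefSeq start. That start need not be the first base of the principal transcript. The upstream *Mlxipl* window held CACGTG at 98 bases, ATTGG at 173 bases and GGGCGG at 188 and 38 bases before the start. All 10 lipogenic genes had at least 1 window in the table, 15 in all, and *Mlxipl* was the only one of the 10 with CACGTG or TCACNCCAC in a window. CATGTG was found for 3 of the 10 genes, CCAAT for 8 and GGGCGG for 5. For *Acaca* and *Acacb* no window held the start of the principal transcript, so that start was not searched. Over all 32851 windows of the table, 7.15% held CACGTG, 14.2% CATGTG, 1.24% TCACNCCAC, 37.4% CCAAT and 35.7% GGGCGG. A match of letters is not a measured binding site, and reads counted per gene do not tell the starts of *Mlxipl* apart. Nor does the lack of a match mean that a promoter has no such site. The search took only these strings of letters and only these windows.

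Of the enzymes that supply acetyl-CoA, *Acly* was higher in value and *Acss2* lower, and neither passed the test. *Acly* (chr11:100476353-100528000, minus strand, 28 exons) encodes the enzyme that splits citrate exported from mitochondria. It stood at 239, 246, 249 and 255.6 CPM in WT and at 287, 279.6 and 255.8 CPM in WDR6-WKO. WDR6-WKO replicates 1 and 2 lay clearly above WT, while replicate 3 lay next to the highest WT library, so the ranges were barely separate. The means were 247 ± 6.87 CPM (s.d., n = 4) and 274 ± 16.4 CPM (n = 3), a log2 fold change of 0.15 ± 0.05 with a 95% interval from 0.04 to 0.26 (edgeR, unadjusted p = 0.00908, adjusted p = 0.0627). Without WDR6-WKO replicate 3 the log2 fold change was 0.20 and *Acly* passed the test (edgeR, adjusted p = 0.000410), and with library sizes alone in place of TMM factors it passed as well.

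*Acss2* (chr2:155517948-155585724, plus strand, 18 exons) encodes the enzyme that activates free acetate. It stood at 15.8, 14.03, 15.5 and 16.4 CPM in WT and at 14.7, 13.9 and 12.6 CPM in WDR6-WKO. WDR6-WKO replicate 1 lay inside the WT range, replicate 2 close under its lower end and replicate 3 below it. The log2 fold change was −0.16 ± 0.09, with a 95% interval from −0.36 to 0.04 (edgeR, adjusted p = 0.277). *Acss2* shared 9.12% of its exon bases with overlapping genes on the opposite strand, and 7.43% of its 50-base sequences occurred in transcripts of *Acss2os* or *Ggt7*. Whether the counting used the strand of the reads is not given in the sources used here, so part of its count is uncertain.

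The carboxylases did not pass the test. *Acaca* (chr11:84129672-84401651, plus strand, 56 exons) encodes ACC1, the cytosolic form whose malonyl-CoA feeds FASN. It stood at 107, 105, 113 and 112 CPM in WT and at 109.6, 107 and 111 CPM in WDR6-WKO, with every WDR6-WKO library inside the WT range. The log2 fold change was 0.00 ± 0.05, with a 95% interval from −0.10 to 0.11 (edgeR, adjusted p = 0.978), which leaves room for a change of −6.96% to 7.95%. In *Acaca*, 52.6% of 50-base sequences also occurred in *Gm5182*, a separate row of the table, so its count could have been split. *Gm5182* had 18.8 ± 2.02 CPM (s.d., n = 4) in the WT libraries, beside 17.4 ± 0.612 CPM (n = 3) in WDR6-WKO, and the sum of both rows at 128 ± 5.44 and 127 ± 1.44 CPM.

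*Acacb* (chr5:114146535-114250761, plus strand, 53 exons) encodes ACC2, the form at the mitochondrial surface whose malonyl-CoA restrains fatty acid uptake into mitochondria. It stood at 15.6, 14.8, 11.9 and 13.3 CPM in WT and at 14.6, 15.5 and 14.6 CPM in WDR6-WKO. The WT libraries varied most of the 10 genes, by 11.9%, and held all 3 WDR6-WKO values within their range. The log2 fold change was 0.10 ± 0.10, with a 95% interval from −0.12 to 0.32 (edgeR, adjusted p = 0.572).

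*Me1* (chr9:86581371-86695953, minus strand, 14 exons) encodes the cytosolic malic enzyme, which makes NADPH while turning malate into pyruvate, and it was lower in WDR6-WKO. It stood at 591, 594, 539.9 and 548 CPM in WT and at 469.9, 463 and 538.6 CPM in WDR6-WKO. WDR6-WKO replicates 1 and 2 lay well below WT, and replicate 3 lay just under the lowest WT library. The means were 568 ± 28.1 CPM (s.d., n = 4) and 490.4 ± 41.9 CPM (n = 3), a log2 fold change of −0.21 ± 0.06 with a 95% interval from −0.34 to −0.09 (edgeR, adjusted p = 0.0251). Expressed as a percentage, *Me1* fell by 13.7%. Without WDR6-WKO replicate 3 the log2 fold change was −0.29 (edgeR, adjusted p = 4.89e-06). The call was lost without WT replicate 1 (edgeR, adjusted p = 0.0779), WT replicate 2 (0.0924), WDR6-WKO replicate 1 (0.111) or WDR6-WKO replicate 2 (0.118), with log2 fold changes from −0.19 to −0.17. In *Me1*, 33.4% of 50-base sequences also occurred in *Gm48795*, *Gm7049* or *Gm7329*, which were not analysed here, so part of its count is uncertain.

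*Thrsp* (chr7:97412938-97417730, minus strand, 2 exons) encodes THRSP, also called Spot 14, a nuclear and cytosolic protein induced by thyroid hormone and carbohydrate that acts with MID1IP1 on the carboxylases. It stood at 4.13, 4.35, 4.89 and 4.42 CPM in WT and at 5.65, 4.77 and 5.53 CPM in WDR6-WKO. WDR6-WKO replicates 1 and 3 lay above WT and replicate 2 inside the WT range. The log2 fold change of 0.26 ± 0.14 was the largest in size of the 10 genes and the least precise, with a 95% interval from −0.03 to 0.55 (edgeR, adjusted p = 0.238). It rested on 82 to 136 reads per library, the lowest counts among the 10.

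The activator genes *Srebf1* and *Mlxipl* were lower in WDR6-WKO, and *Nr1h3* did not pass the test. *Srebf1* (chr11:60199089-60222581, minus strand, 19 exons) encodes SREBP-1a and SREBP-1c, of which the latter is the main form in liver. It stood at 133, 124, 126 and 123 CPM in WT and at 122, 107 and 98.6 CPM in WDR6-WKO. WDR6-WKO replicate 1 lay close under the lowest WT library, replicates 2 and 3 lay further down, and the coefficient of variation was 3.26% in WT and 10.7% in WDR6-WKO. The means were 127 ± 4.12 CPM (s.d., n = 4) and 109 ± 11.7 CPM (n = 3), a log2 fold change of −0.21 ± 0.06 with a 95% interval from −0.35 to −0.07 (edgeR, adjusted p = 0.0445), by which *Srebf1* fell by 13.6%. Without WDR6-WKO replicate 3 the log2 fold change was −0.14 (edgeR, adjusted p = 0.0342), and without WDR6-WKO replicate 1 it was −0.30 (adjusted p = 0.00802). The call was lost with limma-voom (adjusted p = 0.0517), with library sizes alone in edgeR (0.0813), without any 1 of the WT libraries (0.0841 to 0.116) and without WDR6-WKO replicate 2 (0.137). The counts sum all starts of the gene, so SREBP-1a and SREBP-1c were not told apart, and 1.41% of its 50-base sequences also occurred in *Rai1*.

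*Mlxipl* (chr5:135089890-135138382, plus strand, 17 exons in the principal transcript) encodes ChREBP, which binds with MLX to carbohydrate response elements of glycolytic and lipogenic genes. It stood at 161, 149, 144 and 143 CPM in WT and at 132, 120.5 and 127 CPM in WDR6-WKO. All 3 WDR6-WKO libraries lay below all 4 WT libraries, with a gap wider than those of *Me1* and *Srebf1*. The means were 149 ± 7.99 CPM (s.d., n = 4) and 127 ± 5.87 CPM (n = 3), a log2 fold change of −0.24 ± 0.06 with a 95% interval from −0.36 to −0.12 (edgeR, adjusted p = 0.0103). Expressed as a percentage, *Mlxipl* fell by 15.2%. Without WDR6-WKO replicate 3 the log2 fold change was also −0.24 (edgeR, adjusted p = 0.000576). *Mlxipl* passed the test under 13 of 14 alternative settings, the exception being the fit without WDR6-WKO replicate 2 (log2 fold change −0.20, adjusted p = 0.0552).

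*Nr1h3* (chr2:91184061-91202834, minus strand, 10 exons) encodes LXRα, the oxysterol receptor. It stood at 41.7, 39.8, 42.4 and 38.3 CPM in WT and at 39.7, 39.3 and 36.9 CPM in WDR6-WKO. WDR6-WKO replicates 1 and 2 lay inside the WT range and replicate 3 below it. The log2 fold change was −0.07 ± 0.06, with a 95% interval from −0.20 to 0.07 (edgeR, adjusted p = 0.529).

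**Figure D2:**
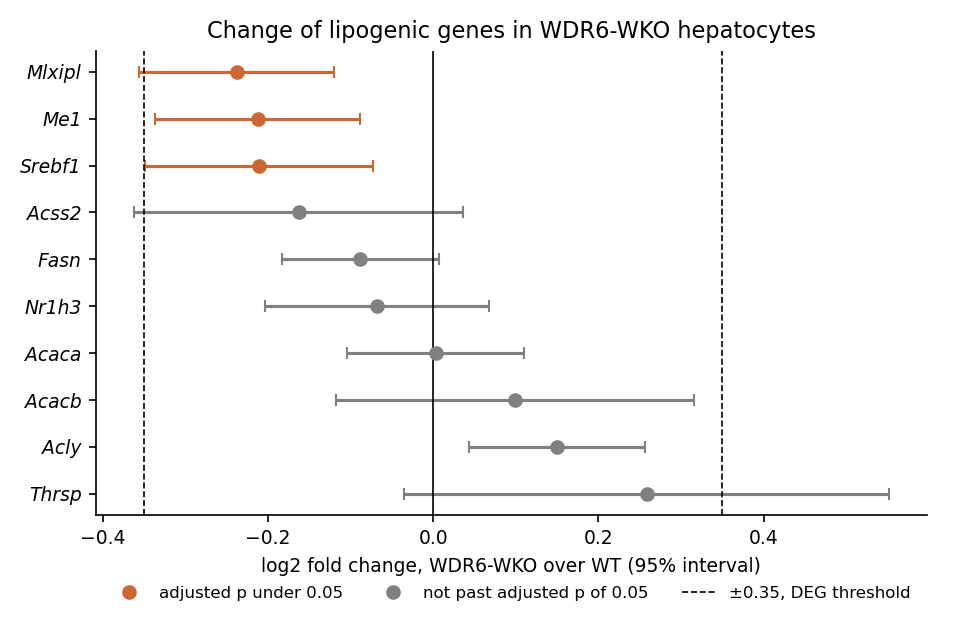
Log2 fold change of WDR6-WKO over WT for the 10 lipogenic genes, with 95% intervals from edgeR (orange, adjusted p under 0.05; grey, not past it; dashed lines, the study's DEG threshold of 0.35 in size). *Mlxipl*, *Me1* and *Srebf1* are the genes in orange, from −0.24 to −0.21, and every point lies inside the dashed lines.

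Compared by level per length (CPM per kilobase of the principal transcript), *Me1* was the most abundant of the 10 transcripts in WT at 173 ± 8.56 (s.d., n = 4), followed by *Acly* at 56.3 ± 1.56, *Mlxipl* at 41.2 ± 2.21, *Fasn* at 36.6 ± 0.193 and *Srebf1* at 29.4 ± 0.959. Below them came *Nr1h3* at 20.7 ± 0.957, *Acaca* at 11.5 ± 0.414, *Acss2* at 5.26 ± 0.338, *Thrsp* at 3.48 ± 0.251 and *Acacb* at 1.58 ± 0.188. In WT no neighbours in this order overlapped in range. The order was the same in WDR6-WKO, where *Mlxipl* (33.3 to 36.5) overlapped *Fasn* (32.8 to 35.3), and *Acss2* (4.29 to 5.02) overlapped *Thrsp* (3.74 to 4.43). The order depended on the length used. With all annotated exons in place of the principal transcript, *Fasn* (33.6) stood above *Mlxipl* (27.0) and *Thrsp* (2.03) above *Acss2* (1.52) in WT. By that length *Acss2* and *Acacb* overlapped in range in WT, and *Acacb* (1.55) stood above *Acss2* (1.35) in WDR6-WKO. The levels of *Me1*, *Acaca* and *Acss2* also carry the uncertainty from shared sequence given above.

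**Figure D3:**
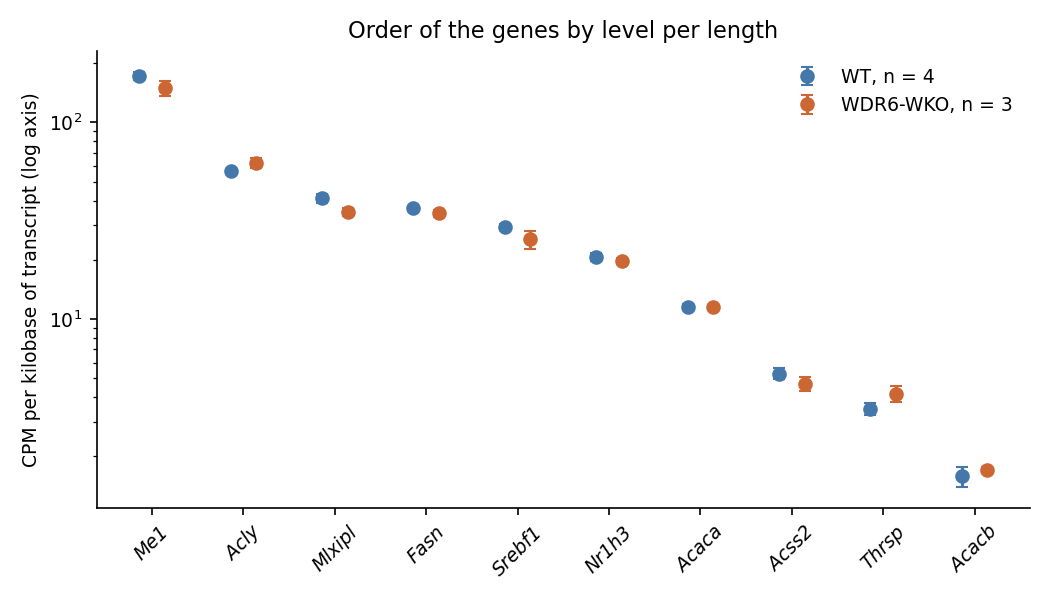
Mean level per length of the 10 lipogenic genes on a log axis, in CPM per kilobase of the principal transcript, in order of WT (blue, n = 4) with WDR6-WKO beside it (orange, n = 3) and bars of ± s.d. The levels run from 173 for *Me1* to 1.58 for *Acacb* in WT, and both genotypes have the same order.

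Across the 14 alternative settings, which changed the tool, the scaling, the filter or the block or left out 1 library, 9 of the 10 genes kept the sign of their fold change. The exception was *Acaca*, whose fold change stayed between −0.01 and 0.03 and changed sign in 6 settings. *Me1* passed the test in 10 of the 14 settings, *Srebf1* in 7, *Acly* in 2 and *Fasn* in 1. The number of lower calls ran from 0, without WDR6-WKO replicate 2, to 4, without WDR6-WKO replicate 3, when *Fasn* joined *Me1*, *Srebf1* and *Mlxipl*. Over all genes, leaving out WDR6-WKO replicate 3 raised the calls from 983 higher and 914 lower to 2150 and 2083.

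**Figure D4:**
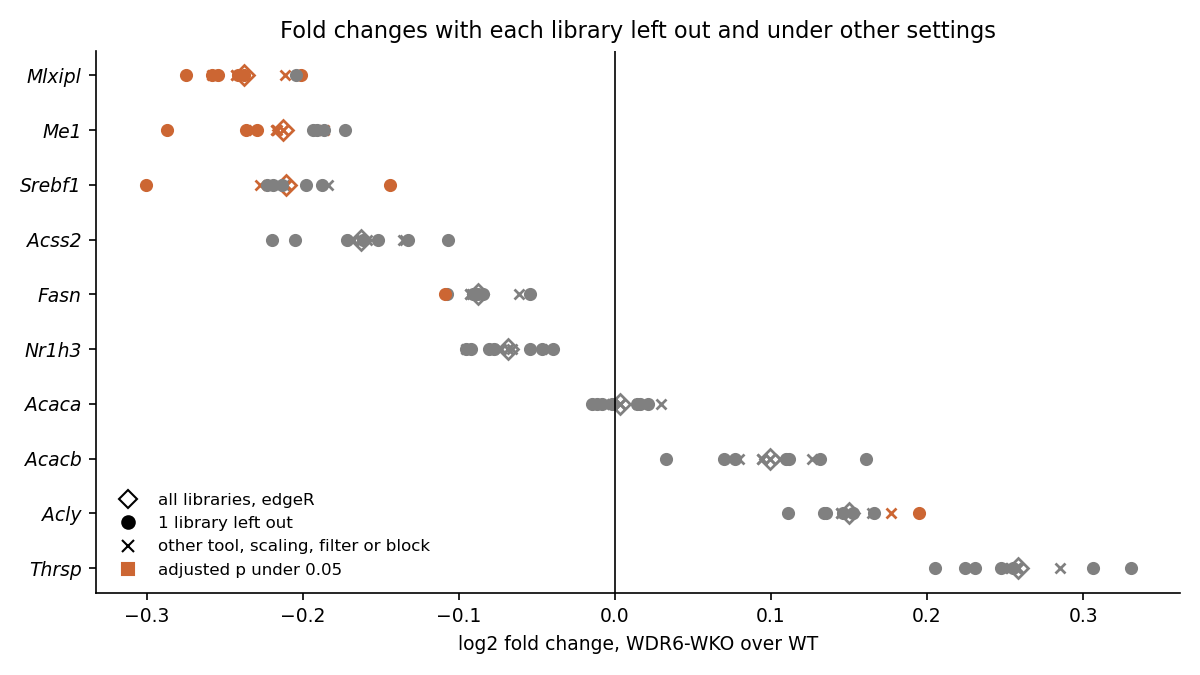
Log2 fold change of each lipogenic gene with all libraries (diamonds), with 1 library left out (dots) and under another tool, scaling, filter or block (crosses), in orange where the adjusted p was under 0.05. *Mlxipl* keeps a narrow range from −0.27 to −0.20, while *Srebf1* runs from −0.30 to −0.14 and *Me1* from −0.29 to −0.17.

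The rest of the pathway was described with 7 lists of 62 related genes, of which 60 were tested. Of these, 7 were higher, 9 were lower and 44 did not pass the test (edgeR, adjusted p under 0.05), with a median log2 fold change of −0.03. Over all genes tested, 6.65% were higher and 6.18% lower by the same rule, and the lists were chosen with earlier results known. Without WDR6-WKO replicate 3 there were 12 higher and 15 lower genes, among them all 16 called with it. In that fit 2150 genes were higher and 2083 lower of all 14796 tested. *Usf1*, which encodes the factor that the study places at *Fasn* transcription, did not pass the test with all libraries (log2 fold change 0.14, adjusted p = 0.412, edgeR) and was higher without WDR6-WKO replicate 3 (0.25, adjusted p = 0.0241). Its relative *Usf2* did not pass with or without that library (0.02, adjusted p = 0.880, and 0.06, adjusted p = 0.567).

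Of 11 genes that act on the carboxylases or on malonyl-CoA, 2 were higher and 1 was lower. *Trib3*, a pseudokinase that marks ACC for degradation in fat tissue, rose from 24.9 ± 6.10 CPM (s.d., n = 4) to 90.2 ± 17.8 CPM (n = 3), a log2 fold change of 1.85 ± 0.22 (edgeR, adjusted p = 0.00410, and 0.0696 with the replicate number as a block). *Mid1ip1*, the partner of THRSP that promotes ACC polymerization, rose from 36.0 ± 3.17 to 52.4 ± 9.39 CPM (log2 fold change 0.54, adjusted p = 0.00630). *Prkaa2*, the α2 catalytic subunit of AMPK, the kinase that inhibits ACC, fell by 0.30 on the log2 scale (adjusted p = 0.0119), a call lost without WDR6-WKO replicate 1 or 2 (up to 0.0653). Beside them, *Acaca* and *Acacb* themselves did not pass the test.

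Of 10 genes of substrate and NADPH supply, 2 were lower beside *Me1*, namely pyruvate carboxylase *Pcx* (log2 fold change −0.20, adjusted p = 0.0370) and the NADPH-producing isocitrate dehydrogenase *Idh1* (−0.19, adjusted p = 0.0233, and 0.0630 with the block). *Taldo1*, the transaldolase of the pentose phosphate pathway, was higher (0.17, adjusted p = 0.0310, and 0.0766 with the block). With the block, the citrate carrier *Slc25a1* (adjusted p = 0.0401) and *G6pdx* (0.0433), which makes NADPH in the pentose phosphate pathway, passed as well, against 0.220 and 0.0542 without it. *G6pdx* also passed without WDR6-WKO replicate 3 (log2 fold change 0.20, adjusted p = 0.00758, edgeR) and with library sizes alone. Each of the 3 calls was lost when any of 5 single libraries was left out, with an adjusted p of up to 0.0983 for *Pcx* (each WT library or WDR6-WKO replicate 2), 0.113 for *Idh1* (WT replicates 1, 2 and 4 or WDR6-WKO replicates 1 and 2) and 0.158 for *Taldo1* (WT replicates 2 to 4 or WDR6-WKO replicates 1 and 2). Of 10 genes of SREBP processing, 1 was lower, *Insig2*, which holds the SCAP–SREBP complex in the endoplasmic reticulum (94.8 ± 2.42 against 74.9 ± 0.703 CPM, log2 fold change −0.34, adjusted p = 0.000374, edgeR). Of 9 partners of ChREBP and LXR, with USF, 1 was lower, the repressor SHP (*Nr0b2*), with a log2 fold change of −0.82 (adjusted p = 0.00403).

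Targets of the activators were called in both directions. Of 9 genes known as ChREBP targets, 7 were tested, while *G6pc* and *Fgf21* were not analysed here. Beside the lower *Mlxipl*, *Arrdc4* (log2 fold change 0.50, adjusted p = 0.00527, edgeR) and the liver pyruvate kinase *Pklr* (0.16, adjusted p = 0.0473, and 0.0838 with the block) were higher and the triokinase *Tkfc* lower (−0.26, adjusted p = 0.0143). Of 7 LXR targets, the cholesterol exporter *Abca1* (−0.34, adjusted p = 0.00159) and the phospholipid-remodelling enzyme *Lpcat3* (−0.28, adjusted p = 0.000923) were lower and *Abcg1* was higher (0.36, adjusted p = 0.0355). The call of *Pklr* was lost with DESeq2 (adjusted p = 0.0504), limma-voom (0.0529) and RLE factors in edgeR (0.0545), so that it held in 4 of 14 settings. It held when WDR6-WKO replicate 3 was left out and was lost without any other single library (up to 0.242). The call of *Tkfc* was lost without WT replicate 3 or 4 (up to 0.0591), and that of *Abcg1* without WT replicate 1, 3 or 4 or WDR6-WKO replicate 1 or 2 (up to 0.213). Downstream of FASN, of 6 elongases and desaturases, the stearoyl-CoA desaturase *Scd1* rose from 739 ± 14.9 to 966 ± 76.3 CPM (0.39, adjusted p = 0.000143) and its paralogue *Scd2* fell by 0.27 on the log2 scale (adjusted p = 0.00403).

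**Figure D5:**
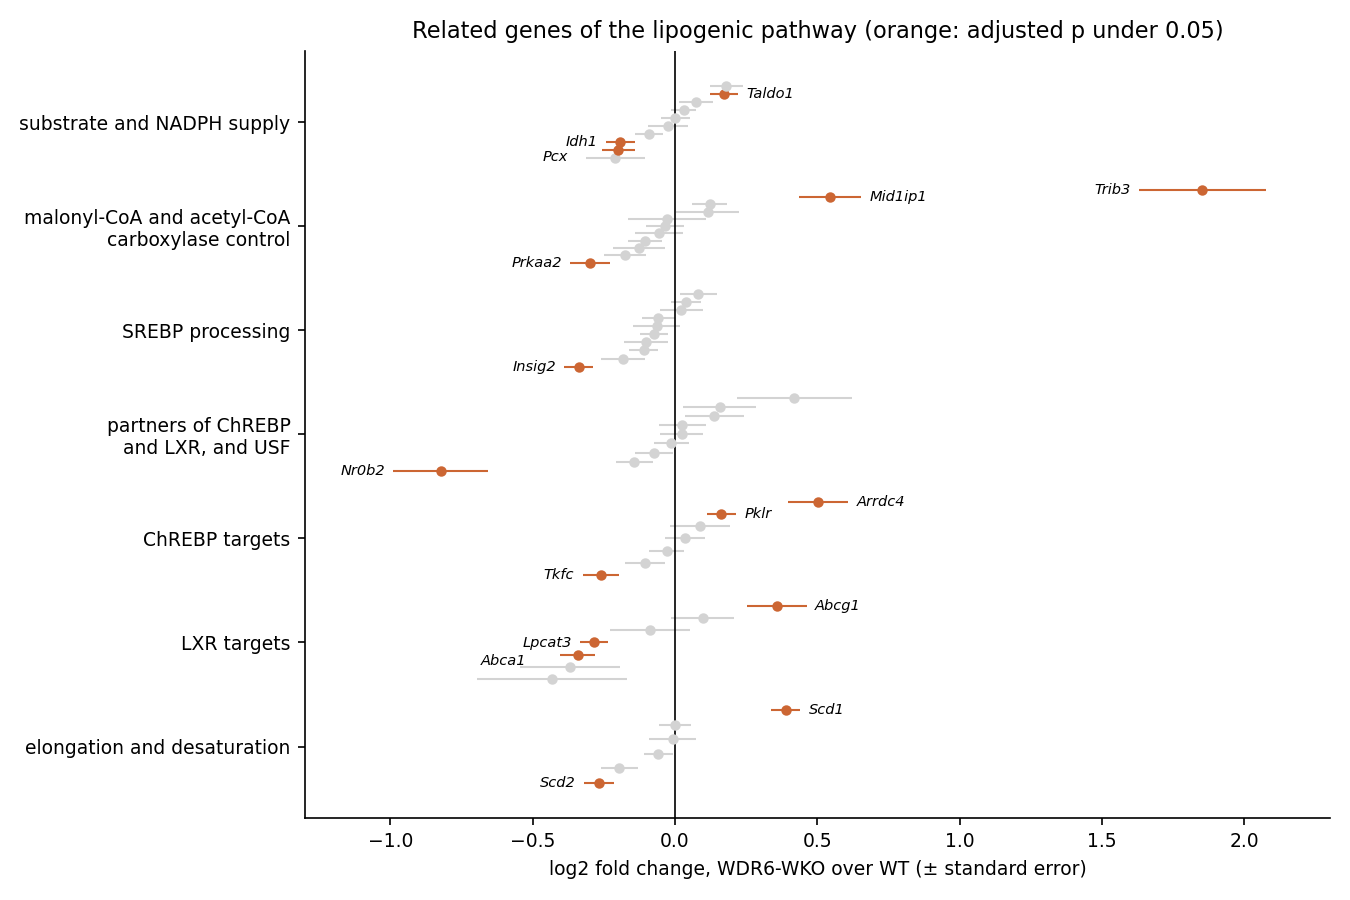
Log2 fold change of WDR6-WKO over WT with its s.e. for the 60 tested genes of 7 lists around the lipogenic pathway (orange and named, adjusted p under 0.05 with edgeR; grey, not past it). Called genes lie on both sides of 0 in 5 of the 7 lists, and *Trib3*, at 1.85, lies farthest from it.

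Markers of hepatocytes, and some markers of other cell types, differed in level between the genotypes. Of 6 hepatocyte markers, 4 were lower, *Apoa1* (log2 fold change −0.69), *Cps1* (−0.69), *Cyp2e1* (−0.34) and *Hnf4a* (−0.27), each with an adjusted p under 0.05 in edgeR. By the same rule, 6.18% of all genes tested were lower and 6.65% higher. The other 2, *Alb* (−0.18, adjusted p = 0.101) and *Ttr* (−0.05, 0.560), did not pass the edgeR test. The summed level of the list was 8014 to 9577 CPM in WT and 7415 to 7919 CPM in WDR6-WKO. Most of it was *Alb*, with a WT mean of 7366 CPM in a mean sum of 8999 CPM, and *Alb* overlapped in range between genotypes. Of 7 Kupffer cell markers, 1 was higher, *C1qb* (0.30, adjusted p = 0.0235, and 0.0603 with the block), or 4 without WDR6-WKO replicate 3, or 2 with the block (*Adgre1*, 0.0435, and *Vsig4*, 0.0180). All 7 had a log2 fold change above 0, and *Marco* (0.46, adjusted p = 0.0880, edgeR) passed with DESeq2 (0.00108) and limma-voom (0.0288). When WDR6-WKO replicate 3 was left out, *Marco* (0.64, 7.66e-12), *C1qa* (0.76, 6.28e-11) and *Cd5l* (0.25, 9.89e-05) passed beside *C1qb* in edgeR. In that fit 2150 of all 14796 genes tested were higher. The sum of the Kupffer cell markers was 616 to 673 CPM in WT and 684 to 856 CPM in WDR6-WKO. Of 6 stellate cell markers, 1 was higher, *Dcn* (0.28), with sums of 304 to 342 and 326 to 339.6 CPM. By sign alone, 3 of these 6 had a log2 fold change above 0 and 3 below it. Without WDR6-WKO replicate 3, 1 stellate cell marker was higher as well, but it was not *Dcn*. With 1 library left out, the adjusted p reached 0.105 for *Cyp2e1* (lost without WT replicate 2 or 3 or WDR6-WKO replicate 1 or 2), 0.118 for *C1qb* (WT replicate 1 or 2 or WDR6-WKO replicate 1 or 2) and 0.0913 for *Dcn* (the same 4 or WDR6-WKO replicate 3). None of the 5 endothelial markers (183 to 212 against 164 to 198 CPM) and none of the 3 cholangiocyte markers (135 to 166 against 125 to 158 CPM) passed the edgeR test at an adjusted or unadjusted p under 0.05, or the adjusted tests of DESeq2 and limma-voom. Of 5 adipocyte markers, *Fabp4* was measured and was higher (0.42), a gene that macrophages and endothelial cells also express, and *Adipoq*, *Plin1*, *Lep* and *Cfd* were not analysed here. Since the smallest row total of the table is 50 counts, no marker in it could be at 0 throughout. *Epcam* was the lowest at 0.849 CPM in WT. The part of these cell types in the differences of *Mlxipl*, *Me1* and *Srebf1* was not tested.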

How the data were processed

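RNA from 7 primary hepatocyte samples (4 WT, 3 WDR6-WKO) was sequenced by the authors on an Illumina HiSeq platform with NEBNext Ultra libraries and, per the submitters' processing notes and the methods, aligned to mm10 with Bowtie2 2.2.3. The deposited table holds raw counts per gene symbol. The counting tool, its annotation and its strand setting are not given in the sources used here. The smallest row total is 50. The samples were grouped by the genotype in their labels.

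Counts were scaled with TMM and tested in edgeR 4.0.16 (R 4.3.3) with filterByExpr and the robust quasi-likelihood test, without covariates, and p-values were adjusted by Benjamini-Hochberg over 14779 genes. The biological coefficient of variation was 7.40%. Totals per library were 17816913 to 23668940 counts. Standard errors were taken from the fold change and its F statistic. The procedure was tested on counts simulated from the fitted levels and dispersions, with no library set apart as WDR6-WKO replicate 3 is. Alternatives were DESeq2 1.42.0, limma-voom (limma 3.58.1), median-of-ratios (RLE) factors, unscaled library sizes, a minimum of 10 counts in every library or no filter, the replicate number as a block, each library left out, and no fold threshold for DEGs. The length of all annotated exons was added as an alternative after seeing the data. Every pair of libraries within a genotype differed by more than sampling noise.

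The deviations from the genotype means (genes of at least 10 CPM) of same-numbered libraries correlated at 0.197, 0.104 and 0.168. The labels do not say what a replicate number stands for, so the main test used no block and the numbers entered only as an alternative. These values do not settle whether the numbers pair the samples. WDR6-WKO replicate 2 correlated more with WT replicate 1 (0.322), and WDR6-WKO replicate 3 with WT replicate 4 (0.190), than with the same-numbered library.

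The 10 genes and all lists were chosen with earlier results of these data known. Named were *Wdr6*, the 10 genes, in each related list the called genes (at most the 5 with the smallest p), and called or near-absent markers. *Usf1*, *Usf2*, *Slc25a1*, *G6pdx* and the markers *Adgre1*, *Vsig4*, *Marco*, *C1qa*, *Cd5l*, *Alb* and *Ttr* were named beyond this rule, after their values were seen. Loci, lengths and shared 50-base sequences came from GENCODE on GRCm38, and the promoter windows from RefSeq.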

Additional observations from a re-analysis of the deposited data

How the results depend on the processing

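Of the 10 lipogenic genes, the number called higher was 0 and became 1 (*Acly*) with library sizes alone, and it ran from 0 to 1 when each library was left out in turn. The number called lower was 3 and ran from 0 to 4 with a library left out. The number of DEGs was 0 under every setting that kept the fold threshold and 4 without it. Of the related genes, 7 were called higher and 9 lower, and with a library left out these counts ran from 4 to 12 and from 6 to 15. *Acaca*, whose fold change is near 0, turned negative with DESeq2 (−0.0019), with median-of-ratios (RLE) factors (−0.0019) and without 4 of the libraries, and ran from −0.0149 to 0.0213 with a library left out. The cause of these changes was not tested.

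With the replicate number as a block, 3 of the 10 lipogenic genes were called lower and 0 higher, and the median log2 fold change of the 10 was −0.09. The block ended the calls of *Taldo1*, *Idh1*, *Trib3*, *Pklr* and *C1qb* and added those of *Slc25a1*, *G6pdx*, *Adgre1* and *Vsig4*, and it changed no other call of the 10 genes, the related genes or the markers. Of the 16 called related genes, 8 were called in every setting and 15 with DESeq2.

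Counting error was not separated from the other spread between libraries. It weighs most on *Thrsp*, *Acacb* and *Acss2*, which had the fewest reads of the 10 genes, 82 to 354 per library. The 95% intervals above are the limit on what can be said of the genes that did not pass the test.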
